A study of Mus musculus with 18 samples.

Results

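E proteins and their Id inhibitors were described at the 4 genes Tcf3, Tcf12, Id2 and Id3, of 21887 protein-coding genes of the mouse, in double-positive (DP) thymocytes of mice. The members were the peaks of 7 peak lists within 100 kb of the bodies of these genes in the mm10 build. Merged within each protein mapped, they made 64 of 35221 SMC1A regions and 117 of 63947 CTCF regions. The mutant cells carried a Satb1 KO and had the tamoxifen treatment that, per the series' design text, induces it. The cells they are set against were labelled WT and had tamoxifen too. The labels give no age, sex, strain or Cre driver, so how many cells of the KO sample kept an undeleted Satb1 allele is not known from them. The lists comprise 2 KO and 2 WT lists for SMC1A and 2 KO lists and 1 WT list for CTCF, from 7 of the 18 samples of the series. The labels give replicate 1 as batch 1 and replicate 2 as batch 2, without naming animals, so the spread behind each p-value may be technical. Peak lists measure neither expression nor the deletion, so they check neither the DP label nor the genotype labels.

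E proteins are basic helix-loop-helix transcription factors that bind the E-box motif as dimers. Tcf3 encodes the E proteins E12 and E47, and Tcf12 encodes HEB. Id2 and Id3 encode helix-loop-helix proteins without a DNA-binding basic region, which pair with E proteins and keep them off DNA. In the thymus, E47 and HEB act in T lineage commitment, in T cell receptor gene rearrangement and in the survival of DP cells. Id3 is induced there by signals from the pre-T cell receptor and the T cell receptor, and Id2 is known best from innate lymphoid and effector T cells. SMC1A belongs to the ring of cohesin, which extrudes chromatin into loops, and CTCF is the DNA-binding protein that often marks where such loops end. SATB1, the product of the deleted gene, is a chromatin organiser abundant in thymocytes. CUT&RUN tethers a nuclease by antibody to the protein of interest and sequences the fragments cut loose around it.

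The promoters of the 4 genes are shown because each of them lay under peaks of both proteins in lists of both genotypes. Each line gives the 250 bases before the annotated start, 5′ to 3′ on the gene's strand, from the RefSeq promoter table of the assembly GRCm38.p6, in which 4 of 4 genes were found. Capitals mark the E-box.

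Tcf3, chr10:80433636-80433885, minus strand: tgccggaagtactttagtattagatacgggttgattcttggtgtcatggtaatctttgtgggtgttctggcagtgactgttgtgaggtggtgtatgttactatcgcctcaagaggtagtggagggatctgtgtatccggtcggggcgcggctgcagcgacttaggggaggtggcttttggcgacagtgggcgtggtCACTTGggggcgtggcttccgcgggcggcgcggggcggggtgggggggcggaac
Tcf12, chr9:72111820-72112069, minus strand: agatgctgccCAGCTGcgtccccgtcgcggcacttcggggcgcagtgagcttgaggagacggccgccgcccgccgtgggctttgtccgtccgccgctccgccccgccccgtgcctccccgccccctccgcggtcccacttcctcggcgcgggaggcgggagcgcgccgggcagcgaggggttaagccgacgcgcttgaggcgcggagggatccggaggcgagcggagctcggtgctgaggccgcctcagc
Id2, chr12:25096093-25096342, minus strand: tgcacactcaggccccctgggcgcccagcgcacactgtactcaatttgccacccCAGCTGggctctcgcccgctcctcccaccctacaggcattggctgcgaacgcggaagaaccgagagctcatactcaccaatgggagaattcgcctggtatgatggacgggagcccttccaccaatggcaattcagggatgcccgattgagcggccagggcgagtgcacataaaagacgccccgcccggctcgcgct
Id3, chr4:136143572-136143821, plus strand: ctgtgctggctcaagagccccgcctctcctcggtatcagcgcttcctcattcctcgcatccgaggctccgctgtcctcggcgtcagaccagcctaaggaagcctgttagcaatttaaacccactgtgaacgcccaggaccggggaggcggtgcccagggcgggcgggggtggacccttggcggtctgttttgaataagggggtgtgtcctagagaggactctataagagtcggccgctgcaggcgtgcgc

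The E-box was searched as CANNTG, a motif that reads alike on both strands, in the 250 bases before and the 50 bases after each start. It occurred once in the Tcf3 window, as CACTTG with its first base at -54 from the start. Id2 and Tcf12 each held CAGCTG, at -196 in Id2 and at -240 in Tcf12, and the Id3 window held no CANNTG. Of 21263 promoters of the table, 69% held this motif, so its presence does not set a promoter apart. The letters GCGNGGGCG, used for the EGR factors, were found on neither strand of the 4 windows and in 7.52% of the table's promoters.

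SMC1A lists comprised 28151 and 20689 peaks in KO cells, against 19882 and 20638 in WT cells, on the autosomes, X and Y. The CTCF lists held 55750 and 22928 peaks in KO cells, against 38989 in WT cells. Values are given for replicate 1 and then replicate 2 throughout. The depth of the libraries is unknown, but the number of reads piled up at a summit and the caller's background could be solved from the authors' fold and p-values for 98.2% to 99.9% of peaks. The weakest listed SMC1A peaks held 5 and 4 reads in KO lists and 5 and 4 in WT lists, so the weakest regions below rest on few reads. A background floor was set near the bottom of each list's solved backgrounds, and solutions below it were set aside. This floor was 0.633 and 0.384 reads in the KO SMC1A lists, against 0.533 and 0.465 in the WT ones. For CTCF it was 1.82 and 3.28 reads in KO, against 1.02 in WT, so the shorter KO CTCF list had the higher floor. Each peak's −log10 q, the authors' adjusted significance, ranks peaks within its own list and is not a level to set across lists.

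Near the 4 genes, 19 SMC1A regions were held by each of the 4 SMC1A lists, 5 were gained and 0 were lost. A region was called gained if both KO lists and no WT list held it, and lost if each WT list and no KO list held it. All 5 gained SMC1A regions lay around Id3. They made 5 of the 30 regions near the 4 genes that both KO lists held, or 16.7%, against 13.1% over the genome. The 0 lost regions were out of 25 in both WT lists, against 4.15% over the genome. For CTCF, 28 regions were in each of the 3 lists, 4 of 32 regions in both KO lists were gained (12.5%, against 8.29% over the genome) and 19 of 79 WT regions were lost (24.1%, against 18.9%). Of the SMC1A regions 29.7% were in every list of the protein, against 35% over the genome, and of the CTCF regions 23.9%, against 27%. Regions in 1 list made 35.9% of the SMC1A regions, against 35.8% over the genome, and 45.3% of the CTCF regions, against 51.6%. With 1 WT list, a CTCF loss has no replicate on the WT side. These counts rest on how many lists must hold a region. Without KO replicate 1 the CTCF losses numbered 55, and without KO replicate 2 the gains numbered 36 for CTCF and 16 for SMC1A. Leaving out 1 SMC1A list gave 1 to 5 SMC1A losses. With peaks of a −log10 q of 5 or more there were 4 CTCF losses and 0 gains. Of those losses, 1 at Tcf3 and 1 at Id3 were among the 19.

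CTCF lay under most of these cohesin regions. A CTCF peak of some list overlapped 57 of the 64 SMC1A regions (89.1%), against 89.8% over the genome, and an SMC1A peak overlapped 54 of the 117 CTCF regions (46.2%), against 45.6%. All 19 SMC1A regions in the 4 SMC1A lists carried CTCF, and 17 of them did so in each of the 3 CTCF lists. The 5 gained regions carried CTCF in KO replicate 1 in 5 cases, in the WT list in 3 and in KO replicate 2 in 1.

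Tcf3 spans chr10:80409541-80433976 on the minus strand, in a gene-dense stretch with 11 other protein-coding genes within 100 kb. Its promoter lay under peaks of all 7 lists, as did that of Id2, which 23.2% of the genes in the promoter table share. Around Tcf3 there were 19 SMC1A regions, 7 of them in every list and 0 gained or lost. Distances below run from a gene's annotated start, upstream or downstream in its direction of transcription. The gene table holds no exons, so for a region inside a gene the exon or intron is not given.

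The promoter region of Tcf3 (chr10:80433524-80434405) had an SMC1A −log10 q of 42.9 and 23.0 in KO lists, against 30.8 and 43.8 in WT lists. The pile-ups there were 37 and 21 reads in KO, against 28 and 35 in WT, so the pile-ups overlapped. The CTCF peak at the promoter had a −log10 q of 239 and 10.3 in KO lists, against 55.7 in the WT list. Counted in bases from the start, its summit lay at -248 and -508 in KO lists, against -178 in the WT list. The SMC1A summits lay at -272 and -182 in KO lists, against -264 and -172 in WT lists, so they fell within or just before the printed sequence.

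A region in Mbd3, the gene of a methyl-CpG binding domain protein, was the highest-ranking one around Tcf3 in each SMC1A list. It lay 33.3 kb downstream (chr10:80399162-80400304), with a −log10 q of 101 and 45.1 in KO lists, against 82.7 and 59.2 in WT lists. These values placed it at percentiles 98.9 and 97.4 of the KO lists, against 98.4 and 97.5 of the WT lists. CTCF was listed over it with a −log10 q of 509 and 67.0 in KO, against 125 in WT. A further region 12.4 kb upstream of Tcf3, in the gap before Onecut3 (chr10:80446081-80446639), had SMC1A values of 27.7 and 16.9 in KO lists, against 31.1 and 28.7 in WT lists. CTCF there stood at 136 and 19.5 in KO, against 64.6 in WT. The Mbd3 region was in the 7 lists, and its percentiles overlapped between genotypes. The upstream region stood at percentiles 87.1 and 83.1 of the KO lists, against 90.6 and 90.9 of the WT lists, with pile-ups of 29 and 18 reads in KO, against 30 and 33 in WT. The lists differ in length and their depths are unknown, so these values cannot tell whether the level changed.

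The other 4 regions in each SMC1A list were weaker and lay downstream of Tcf3. One in Uqcr11, which encodes a small subunit of respiratory complex III (chr10:80406510-80407082), had 7.59 and 3.70 in KO lists, against 5.36 and 8.34 in WT lists. One beside Mex3d, the gene of an RNA-binding protein (chr10:80376223-80376563), had 7.18 and 6.13 in KO lists, against 6.34 and 6.98 in WT lists. A region in Adamtsl5 (chr10:80340009-80340521) had 7.56 and 3.42 in KO, against 5.83 and 3.12 in WT. These 3 were under CTCF peaks in all 3 CTCF lists, with a −log10 q of 31.9 and 1.91 in KO, against 5.15 in WT, at Uqcr11. The CTCF values were 148 and 10.9 in KO, against 46.5 in WT, beside Mex3d, and 59.3 and 17.9 in KO, against 50.3 in WT, in Adamtsl5. The last, in 2310011J03Rik at the edge of the window (chr10:80320311-80320829), had 6.62 and 2.45 in KO lists, against 5.36 and 5.04 in WT lists. Its CTCF peaks were in KO replicate 1 and WT and not in KO replicate 2.

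Of the 12 SMC1A regions around Tcf3 in some lists only, 8 were in 1 list. Both WT lists and KO replicate 1 held a region beside Adamtsl5 (chr10:80350150-80350672), with a −log10 q of 6.20 in KO, against 8.54 and 8.05 in WT, and a region in Onecut3 (chr10:80506191-80506651), with 11.1 in KO, against 5.34 and 3.84 in WT. KO replicate 2 lacked both. A neighbouring Onecut3 region (chr10:80509353-80509744) had 13.1 and 4.32 in KO lists, against 6.60 in WT replicate 1. WT replicate 2 listed its own peak just beside it (chr10:80509141-80509340, −log10 q of 4.00), and both fell under the same CTCF region. Inside Tcf3, within 2 kb of the start, 1 weak peak was in KO replicate 2 alone (chr10:80432834-80433058, −log10 q of 4.07) and 1 in WT replicate 2 alone (chr10:80432016-80432310, 3.73). No gene-internal SMC1A region beyond these was listed. CTCF inside Tcf3, apart from the promoter, was at chr10:80432636-80433223 with 3.63 in KO replicate 1, against 4.39 in WT, and at chr10:80415065-80415269 with 3.01 in KO replicate 2 alone.

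CTCF made 35 regions around Tcf3, 11 of them in each of the 3 lists. Besides those named, CTCF regions in the 3 lists were in Adamtsl5 (chr10:80347971-80349053, a −log10 q of 19.9 and 3.63 in KO, against 15.3 in WT), in Uqcr11 (chr10:80403296-80403973, 17.4 and 2.92 in KO, against 10.4 in WT) and under the SMC1A regions beside Adamtsl5 and in Onecut3 above. Beside Adamtsl5 (chr10:80349772-80350796) the values were 87.2 and 11.3 in KO, against 32.3 in WT. The 2 regions in Onecut3 had 99.6 and 10.1 in KO, against 29.6 in WT (chr10:80506120-80506853), and 59.9 and 17.2 in KO, against 38.6 in WT (chr10:80508976-80510116). KO replicate 1 held the highest value and KO replicate 2 the lowest in each of the 11, in the order of the lengths of the lists.

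At Tcf3, 7 of the 28 CTCF regions of the WT list were lost (25%, against 18.9% over the genome). Of the 13 in both KO lists 2 were gained (15.4%, against 8.29%). The lost ones were weak, with a −log10 q of 2.01 to 5.48 and pile-ups of 8 to 13 reads, and no SMC1A peak overlapped any of them. They lay in Pcsk4 (chr10:80323545-80323899), Adamtsl5 (chr10:80344275-80344474), Mex3d (chr10:80380086-80380492) and Onecut3 (chr10:80516498-80517164), and between genes at chr10:80370323-80370604, chr10:80388762-80388961 and, 5.42 kb upstream of Tcf3, chr10:80439055-80439254. The gained ones were a region in Onecut3 (chr10:80507314-80507932, 2.88 and 4.14 in the KO lists) and one beside Atp8b3 (chr10:80519117-80519515, 6.73 and 3.12), again without SMC1A. Of all protein-coding genes with a WT CTCF region in reach, 69.4% had at least 1 lost CTCF region, and 24.7% of those with a region in both KO lists had a gained one.

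**Figure D1:**
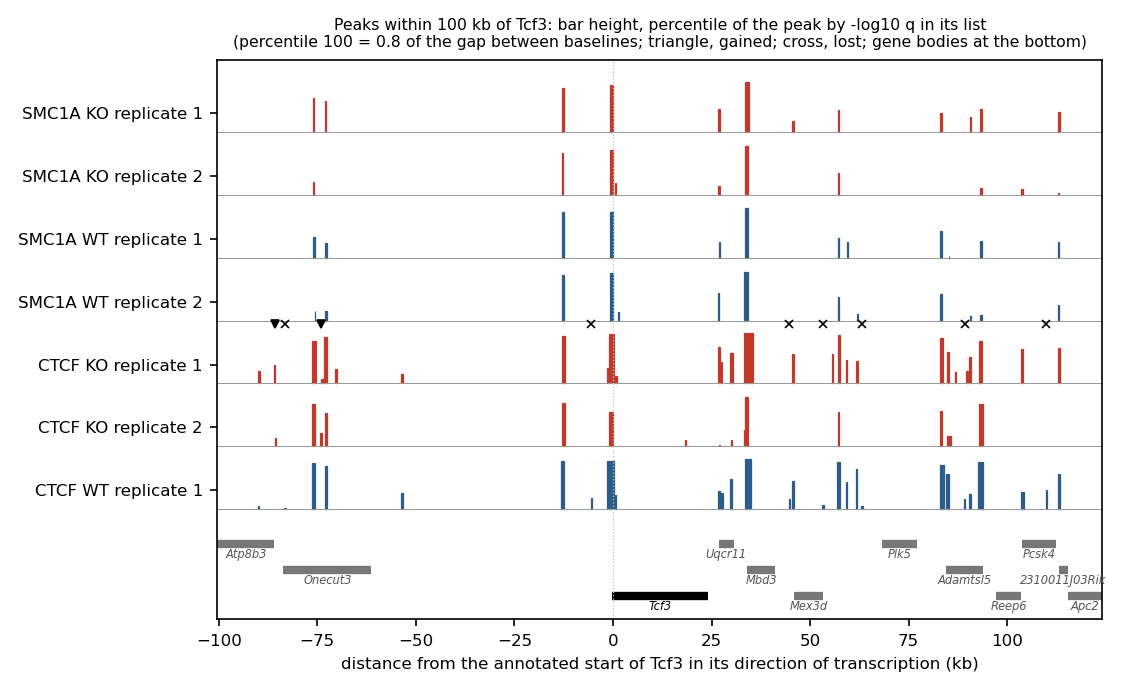
Peaks of the 7 lists around Tcf3, with distance from the annotated start in kb on the x axis and a bar per peak whose height is its percentile by −log10 q in its own list. KO lists are red and WT lists blue, triangles mark gained and crosses lost regions, and the bars at the promoter, at 12.4 kb upstream and in Mbd3 stand tall in each SMC1A list.

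Tcf12 spans 267642 bp, chr9:71844252-72111893 on the minus strand, and the window around it holds 1 other protein-coding gene, Cgnl1, which encodes a cell junction protein. Its 10 SMC1A regions, a number that 30.3% of protein-coding genes reach or pass within 100 kb of the gene, came to 2.14 per 100 kb, against 8.47 around Tcf3, 5.44 around Id2 and 11.9 around Id3. One of the 10 was in every list, 7 were in 1 list (70.0%, against 35.8% over the genome), and 0 were gained or lost. Every one of the 10 was in some KO list, and 3 were in some WT list. Within batch 1, KO alone held 5 of the 8 KO regions, against 40.5% of the KO list over the genome. Within batch 2 it held 3 of the 4, against 29%. WT alone held 0 in each batch, against 14.7% and 29.4% of the WT lists over the genome. These are few regions, and the difference was not tested.

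The region shared by the 4 SMC1A lists lay past the 3′ end of Tcf12 (chr9:71831733-71832246). Its −log10 q was 7.94 and 3.23 in KO lists, against 6.36 and 5.93 in WT lists, with pile-ups of 17 and 9 reads in KO, against 11 and 13 in WT. The pile-ups overlapped between genotypes. The single CTCF region of the window that was in each of the 3 CTCF lists lay under it, with a −log10 q of 20.8 and 3.96 in KO, against 6.52 in WT. It was the highest-ranking SMC1A region around Tcf12 in both WT lists. In KO replicate 1 the promoter region ranked highest, and in KO replicate 2 a gene-internal peak did.

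The promoter table has 3 starts for Tcf12. At the promoter printed above, SMC1A peaks (chr9:72111673-72112397) had a −log10 q of 9.83 and 3.46 in KO lists, against 2.70 in WT replicate 1 and no peak in WT replicate 2. The pile-ups were 13 and 6 reads in KO, against 8 in WT replicate 1, so these peaks held few reads in each list. CTCF was listed there (chr9:72111629-72112503) with 10.9 in KO replicate 1, against 10.6 in WT. The start next to it had an SMC1A peak in KO replicate 1 alone (chr9:72110678-72111174, −log10 q of 5.56), under CTCF peaks (chr9:72109905-72111341) with 19.4 in KO replicate 1, against 5.95 in WT. The third start, inside the gene at chr9:71896096, lay under no peak of any list. A promoter under peaks in every SMC1A list was found for 28% of the table's genes, and in every CTCF list for 27.3%.

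Inside the gene, SMC1A peaks of 1 list each were in KO replicate 1 at chr9:71874306-71874505, chr9:72097134-72097349 and chr9:72098127-72098371, and in KO replicate 2 at chr9:72087342-72087541 and chr9:72100726-72100925. Their −log10 q was 3.52, 5.53 and 3.17 in KO replicate 1 and 3.23 and 3.80 in KO replicate 2. Upstream, a region at chr9:72115043-72115444 was in KO replicate 1 (2.42), and one 21.7 kb upstream (chr9:72133537-72133936) was in KO replicate 1 with 9.35, against 4.43 in WT replicate 1. The KO replicate 1 SMC1A list was the longest of the 4, and its part in these single peaks was not tested. Peak numbers compared with lists of equal length, or without that list, are given below.

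CTCF made 25 regions around Tcf12, of which KO replicate 1 held 21, KO replicate 2 held 2 and WT held 13. Of the 2 CTCF regions in both KO lists 1 was gained (50%, against 8.29% over the genome). The 1 gained CTCF region was the one 21.7 kb upstream (chr9:72133541-72133983), with 9.30 and 2.27 in KO lists. SMC1A was listed there in KO replicate 1 and WT replicate 1, so the WT SMC1A library had a peak where the WT CTCF list had none. The 4 lost CTCF regions, of 13 in the WT list (30.8%, against 18.9% over the genome), had a −log10 q of 2.04 to 2.96. They were in Cgnl1 (chr9:71777405-71777733), inside Tcf12 (chr9:72086442-72086641), 1.96 kb upstream (chr9:72113776-72113975) and 4.43 kb upstream (chr9:72116252-72116506), and none carried SMC1A. Besides the lost one, 14 CTCF regions touched the gene body, of which 9 were in KO replicate 1 alone and 5, the 2 at the starts among them, in KO replicate 1 and WT. The other 3 shared ones were at chr9:72097715-72098571 (15.5 in KO, against 4.89 in WT), chr9:72107272-72107798 (3.21 in KO, against 2.32 in WT) and chr9:72109413-72109762 (2.06 in KO, against 5.08 in WT). The 9 of KO replicate 1 lay from 2.57 to 237 kb downstream of the start, and the highest of them was at chr9:72097101-72097473 with 13.8, under an SMC1A peak of the same replicate. The highest CTCF value around Tcf12 in KO replicate 1 was in Cgnl1 (chr9:71772312-71773069), with 32.8, against 10.1 in WT.

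**Figure D2:**
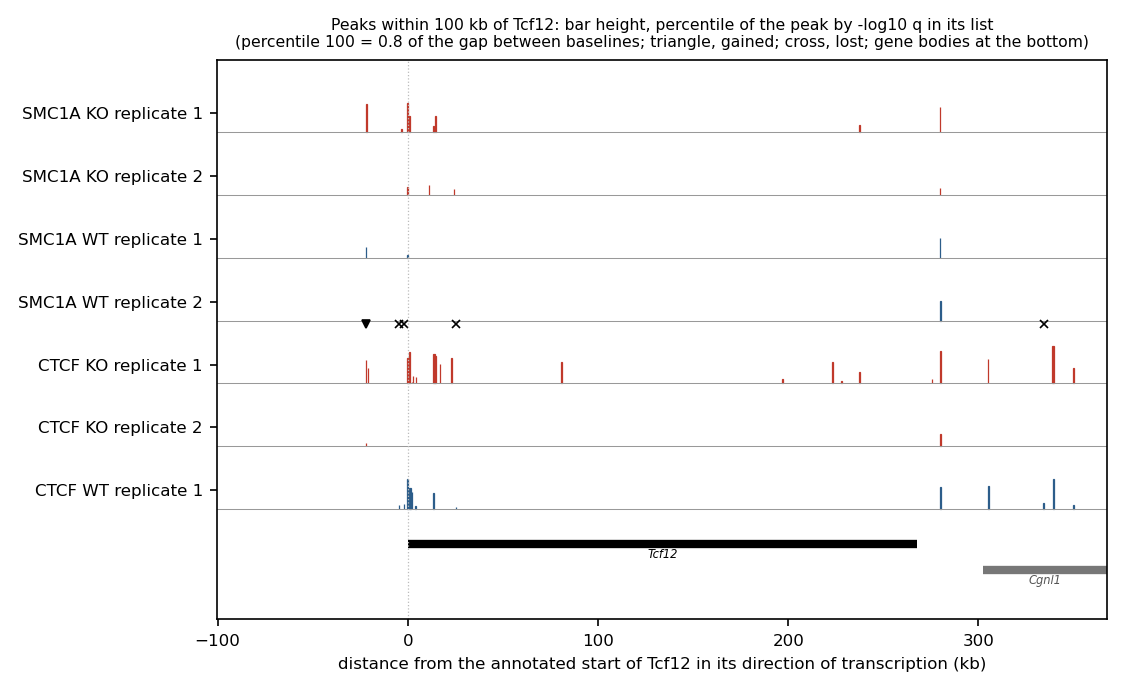
Peaks of the 7 lists around Tcf12, drawn as percentiles by −log10 q within each list against distance from the start in kb. The SMC1A rows hold 8 and 4 peaks in KO, against 3 and 1 in WT, most of them near the start, and the region at 280 kb is in all 7 lists.

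Id2 is a short gene, chr12:25093799-25096092 on the minus strand, with Kidins220, a neuronal scaffold protein gene, as the other protein-coding gene in its window. It had 11 SMC1A regions, 3 of them in every list and 0 gained or lost. The 3 shared regions were the promoter, the stretch past the 3′ end and a distal upstream region.

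At the Id2 promoter (chr12:25095655-25096549), SMC1A had a −log10 q of 51.7 and 14.1 in KO lists, against 38.7 and 27.4 in WT lists. The pile-ups were 45 and 16 reads in KO, against 35 and 32 in WT. Both WT pile-ups thus lay between the KO ones. The CTCF region there (chr12:25095648-25096684) had 80.1 and 7.76 in KO, against 29.9 in WT. SMC1A summits lay at -127 and -138 from the start in KO, against -127 and -85 in WT, within the printed sequence.

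Just past the 3′ end of Id2, 538 bp from the gene (chr12:25092007-25093261), SMC1A had a −log10 q of 45.0 and 30.1 in KO lists, against 39.5 and 39.7 in WT lists. Pile-ups of 38 and 25 reads in KO stood against 33 and 32 in WT. This region ranked at percentiles 94.3 and 93.7 of the KO lists, against 93.6 and 94.9 of the WT lists. CTCF over it (chr12:25091630-25093335) had 121 and 33.0 in KO, against 60.2 in WT, the highest CTCF value around Id2 in each list. The Id2 gene thus lies between a promoter region and a 3′ region that both held SMC1A and CTCF in the 7 lists.

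The third shared region, 93.2 kb upstream (chr12:25189285-25190028), had 16.3 and 11.2 in KO lists, against 13.6 and 4.96 in WT lists. CTCF was listed there in KO replicate 1 and WT. Its neighbour (chr12:25190477-25190866) was in KO replicate 1 with 6.36, against 3.92 in WT replicate 1. Inside Id2 (chr12:25095080-25095499) SMC1A was in KO replicate 1 with 4.58, against 7.82 in WT replicate 2, and in neither other SMC1A list. In Kidins220 a region (chr12:25027343-25027786) was in both KO lists with 5.13 and 4.43, against 3.40 in WT replicate 1. The remaining 5 regions were in 1 list each. In Kidins220, 2 were in KO replicate 1 (3.24 and 2.59) and 1 was in KO replicate 2 (6.42), and upstream of Id2 there was 1 in WT replicate 1 (2.19) and 1 in WT replicate 2 (3.46).

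CTCF made 17 regions around Id2, and KO replicate 2 held the 2 of them at the gene and no others. KO replicate 1 held 15 and WT held 8. The 2 lost regions, 14.8 kb upstream (chr12:25110928-25111127) and 82.7 kb upstream (chr12:25178798-25179231), had a −log10 q of 1.72 and 3.20 in WT, and no CTCF region was gained. The losses made 25% of the 8 WT regions, against 18.9% over the genome. Inside the gene, CTCF was listed in KO replicate 1 alone at chr12:25093640-25094286 (2.06) and chr12:25094877-25095473 (1.97).

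**Figure D3:**
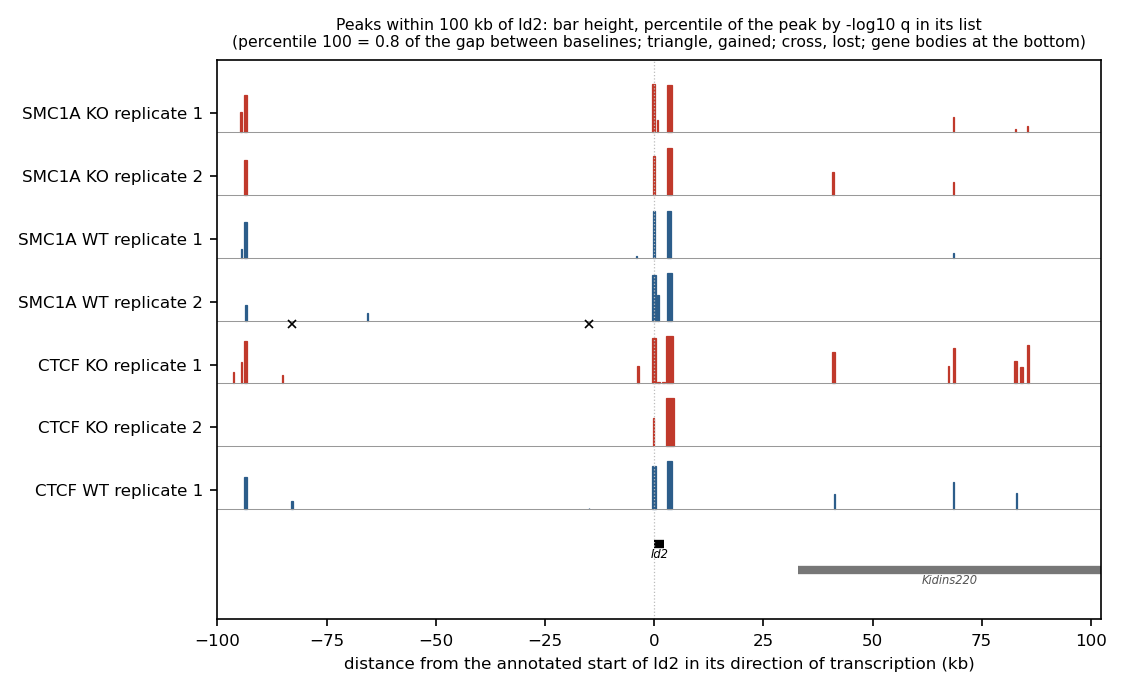
Peaks of the 7 lists around Id2, drawn as percentiles by −log10 q within each list against distance from the start in kb. Each row has a bar just past the gene at percentile 93.6 or above and one at the start, which in KO replicate 2 of CTCF reaches percentile 55.3, and that list has no bar elsewhere.

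Id3 spans chr4:136143822-136145392 on the plus strand. Its window also holds Rpl11, a ribosomal protein gene, upstream, and E2f2, a cell cycle transcription factor gene, and Asap3, an Arf GTPase-activating protein gene, downstream. Cohesin regions were dense there. The 24 SMC1A regions are a number that 2.26% of protein-coding genes reach or pass, and their median length of 840 bp compares with 426 bp over the genome. For regions in every SMC1A list, the median was 969 bp around Id3, against 692 bp over the genome. Of the 24, 8 were in every list, 5 were gained and 0 were lost.

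The 5 gained SMC1A regions made 31.2% of the 16 regions around Id3 that both KO lists held, against 13.1% over the genome. A gene with 5 or more gained regions within 100 kb was found 56 times among 21887 protein-coding genes (0.256%), and neighbouring genes share regions. At least 1 gained region was found at 35.6% of genes with a region in both KO lists. The 5 regions had pile-ups of 6 to 16 reads and folds over background of 4.26 to 8.61. Within batch 1, 10 regions around Id3 were in the KO list alone, 1 in the WT list alone and 13 in both, and within batch 2 the KO list alone held 7, the WT list alone 4 and both lists 10. Over the genome the KO list alone held 11211 regions in batch 1 and the WT list alone 2834, and in batch 2 the KO list alone held 5804 and the WT list alone 5892. More regions were thus held by KO alone than by WT alone around Id3 in both batches. Over the genome that held in batch 1 and not in batch 2. By their definition the 5 gained regions are held by KO alone in each batch. They made 5 of the 10 such regions in batch 1 and 5 of the 7 in batch 2. The counts per batch are therefore no separate support for the gains.

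The strongest gained SMC1A region lay 5.39 kb downstream of the Id3 start, past the gene (chr4:136149213-136150160). Its −log10 q was 10.8 and 11.4 in KO, at percentiles 61.2 and 70.5, with pile-ups of 16 and 15 reads, and no WT list held it. It was the sole gained region under CTCF peaks in all 3 CTCF lists (chr4:136148651-136150532), with 95.5 and 13.8 in KO, against 13.3 in WT. The CTCF pile-ups were 99 and 40 reads in KO, against 23 in WT, in libraries whose backgrounds there were 4.06 and 7.31 reads in KO, against 2.28 in WT. CTCF at this site was thus listed in both genotypes while SMC1A was listed in KO cells.

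Upstream of Id3, in the gap before Rpl11, lay 3 further gained SMC1A regions. The region 83.4 kb upstream (chr4:136060018-136060399) reached 8.59 and 4.20 by −log10 q in KO, with pile-ups of 15 and 8 reads. The region 42.6 kb upstream (chr4:136100322-136101199) had 8.59 and 5.07, with 15 and 9 reads. Both carried CTCF in KO replicate 1 and in neither other CTCF list. The region 3.25 kb upstream (chr4:136140228-136140567) was the weakest, with 3.17 and 2.63 and pile-ups of 8 and 6 reads, under CTCF of KO replicate 1 and WT. The fifth region lay inside E2f2 (chr4:136172871-136173175), with 4.70 and 8.87 and pile-ups of 10 and 12 reads, also under CTCF of KO replicate 1 and WT. Beside it, a region in both KO lists and WT replicate 1 (chr4:136171969-136172455) ended less than 500 bp away. With the demand that no WT peak lie within 500 bp, a setting chosen after seeing the data, 4 of the 5 remained.

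The count of 5 moved with the settings. With peaks of a −log10 q of 5 or more it was 3, of which 2 were among the 5. With the lists cut to the equal length of 19882 peaks it was 3, of which 3 were among the 5. Within 20 kb of Id3 it was 2. Without KO replicate 2 it was 8, including the 5. Leaving out KO replicate 1, WT replicate 1 or WT replicate 2 gave 5, 7 and 6, each including the 5.

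At the Id3 promoter and body (chr4:136143533-136145257) SMC1A was listed in each list, in different shapes. Each KO list held 1 broad peak over the promoter and the gene, with its summit at -14 and -11 from the start. Each WT list held 2 separate peaks, 1 at the start and 1 within the gene. The KO peaks had a −log10 q of 13.9 and 7.19 and pile-ups of 26 and 15 reads at their summits. In WT the peaks at the start had 5.19 and 3.74 with 18 and 12 reads, and those within the gene, with summits 979 and 820 bases past the start, had 11.1 and 9.21 with 14 and 12 reads. The local background the caller set for the KO summits was 2.83 and 1.71 reads, against 0.750 and 0.664 for the gene-internal WT summits. Those summits lie at different positions, so these backgrounds do not compare the genotypes at the start of the gene. The CTCF region there (chr4:136143467-136145774) had 47.6 and 7.39 in KO, against 18.5 in WT, and its KO replicate 2 peaks lay within the gene and did not reach the printed promoter.

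Of the other 7 SMC1A regions around Id3 in each list, 4 lay upstream. In Rpl11, 90.1 kb upstream (chr4:136052760-136053765), the −log10 q was 53.5 and 29.2 in KO lists, against 22.8 and 17.9 in WT lists. The pile-ups were 49 and 28 reads in KO, against 26 and 27 in WT, so the lower KO pile-up exceeded the higher WT one by 1 read. A pair of regions at 73.2 and 71.8 kb upstream followed. The first (chr4:136069683-136070614) had 29.0 and 29.9 in KO lists, against 29.2 and 15.2 in WT lists, and ranked highest around Id3 in KO replicate 2. The second (chr4:136070854-136072043) had 66.0 and 21.9 in KO lists, against 54.2 and 48.3 in WT lists, and was the highest-ranking region around Id3 in KO replicate 1 and in both WT lists. One CTCF region (chr4:136069535-136072064) covered both, with 190 and 60.0 in KO, against 63.1 in WT. At 54.3 kb upstream (chr4:136088584-136089510) SMC1A had 15.2 and 16.2 in KO lists, against 7.08 and 8.80 in WT lists, with pile-ups of 20 and 18 reads in KO, against 12 and 13 in WT. Its percentiles were 72.4 and 81.9 in KO lists, against 44.0 and 57.4 in WT lists. Neither ranks from lists of unequal length nor reads from libraries of unknown depth can tell whether the level changed.

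The 3 shared regions downstream of Id3 lay before and after E2f2. That at 15.8 kb (chr4:136159664-136160800) had a −log10 q of 35.3 and 28.8 in KO lists, against 29.8 and 25.7 in WT lists. Its CTCF peak, with 203 and 21.0 in KO, against 77.4 in WT, was the highest around Id3 in KO replicate 1 and in WT. That at 19.5 kb (chr4:136163273-136163917) had 18.8 and 11.0 in KO lists, against 7.08 and 18.8 in WT lists. The region at 56.0 kb (chr4:136199856-136200240) had 5.06 and 6.95 in KO lists, against 8.97 and 5.13 in WT lists. In these 3 the pile-ups overlapped between genotypes, and CTCF was in each of the 3 CTCF lists at all of them.

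The remaining 11 SMC1A regions around Id3 were in 1 to 3 lists. A region 61.3 kb upstream (chr4:136081581-136082536) had 27.6 and 5.19 in KO lists, against 8.10 in WT replicate 1, and no peak in WT replicate 2. It lay in the 1 gained CTCF region of Id3 (chr4:136080822-136082541), with 50.2 and 4.90 in the KO CTCF lists and pile-ups of 74 and 26 reads. WT SMC1A was thus listed, in replicate 1, where WT CTCF was not. A region 53.2 kb upstream (chr4:136089691-136090606) had 7.06 and 12.1 in KO lists, against 3.52 in WT replicate 2. Within 2 kb past the gene (chr4:136147118-136148297) SMC1A was in KO replicate 1 with 9.96, against 9.88 and 5.03 in WT lists, over CTCF of 37.3 and 6.56 in KO, against 13.6 in WT. In E2f2 and around Asap3 another 6 regions were in 2 or 3 lists or, at the window's edge, in KO replicate 1. The last 2 were upstream regions of KO replicate 1 alone.

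CTCF made 40 regions around Id3, of which 14 were in each of the 3 lists. Of 30 WT regions 6 were lost (20.0%, against 18.9% over the genome), and 1 of 15 in both KO lists was gained (6.67%, against 8.29%). In the stretch from Id3 to Asap3, the 14 included a region in E2f2 without any SMC1A peak (chr4:136189401-136190287), with 22.7 and 1.89 in KO, against 3.45 in WT. They also held the edge region in Asap3 (chr4:136239637-136240042), with 33.2 and 15.9 in KO, against 12.2 in WT, whose SMC1A peak was in KO replicate 1. The other 12 carried SMC1A in both genotypes or, in the region at 4.83 kb, in KO lists. Their −log10 q was 22.3 to 203 in KO replicate 1 and 4.27 to 60.0 in KO replicate 2, against 13.3 to 77.4 in WT. The 6 lost CTCF regions had 1.47 to 5.15 in WT, pile-ups of 9 to 14 reads and no SMC1A peak. Those nearest Id3 lay 2.70 kb upstream (chr4:136140807-136141124) and 16.1 kb upstream (chr4:136127398-136127763), and the rest at chr4:136068644-136068945, chr4:136112427-136112811, chr4:136171330-136171613 and, inside E2f2, chr4:136174901-136175100.

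**Figure D4:**
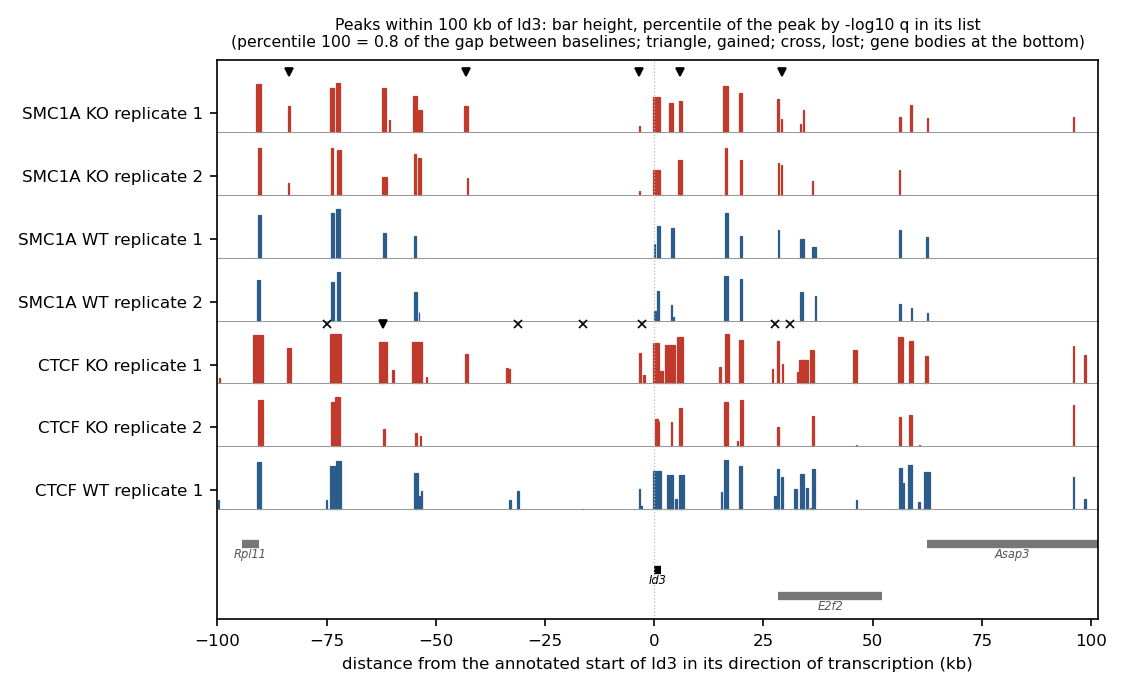
Peaks of the 7 lists around Id3, drawn as percentiles by −log10 q within each list against distance from the start in kb. The triangles above the SMC1A rows mark the 5 gained regions, which have bars in both KO rows and none in the WT rows, and the crosses above the CTCF rows mark the 6 lost ones.

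The number of SMC1A peaks within 100 kb was compared between genotypes as peaks per 1000 peaks of the list, with limma over 14601 genes. None of the 4 genes changed at an adjusted p under 0.05, a threshold that 54 genes (0.37%) passed, 39 higher and 15 lower in KO. At an unadjusted p under 0.05 there were 1680. The median change over all genes was -0.11 on the log2 scale. With the replicate number as a block, limma called 0 genes at the adjusted threshold and 1454 at an unadjusted p under 0.05.

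Around Tcf3 the density was 0.426 and 0.483 per 1000 in KO lists, against 0.604 and 0.630 in WT lists. That is a log2 change of -0.43 ± 0.19 (SE, n = 2 each; limma, adjusted p = 0.39). Both KO lists were below both WT lists, which held for 33.9% of genes. Around Tcf12 it was 0.284 and 0.193 in KO lists, against 0.151 and 0.0485 in WT lists, from 8 and 4 peaks in KO, against 3 and 1 in WT. The log2 change was 1.18 ± 0.40 (limma, adjusted p = 0.29), with both KO lists above both WT lists, as in 13.1% of genes. Without KO replicate 2 the Tcf12 change was 1.42 with a limma adjusted p of 0.038, a call that the 4 lists together did not give. It was 1.12 with lists of equal length and 0.94 without KO replicate 1. It was 0.54 without WT replicate 2 and 1.82 without WT replicate 1, so the size rests on which WT list is used. Over the alternatives its adjusted p ran from 0.038 to 0.63. Around Id2 the density was 0.284 and 0.242 in KO, against 0.302 and 0.242 in WT, a log2 change of -0.06 ± 0.25 (limma, adjusted p = 0.94), and the groups overlapped. With 1 list left out the Id2 change ran from -0.21 to 0.09. Around Id3 it was 0.853 and 0.822 in KO, against 0.754 and 0.775 in WT, a log2 change of 0.12 ± 0.15 (limma, adjusted p = 0.78). Both KO lists were above both WT lists there, which again held for 13.1% of genes. Within 20 kb of Id3 the change was -0.25 (limma, adjusted p = 0.73), so the direction depends on the distance. The exact two-sided permutation test gave p = 0.333 for Tcf3, Tcf12 and Id3, the smallest that 2 against 2 allows, and p = 0.667 for Id2. CTCF density, with 1 WT list and so no test, was 0.502 and 0.654 per 1000 peaks in KO lists, against 0.718 in the WT list, around Tcf3 and 0.592 and 0.872 in KO, against 0.949 in WT, around Id3. It was 0.395 and 0.0872 in KO, against 0.333 in WT, around Tcf12 and 0.269 and 0.0872 in KO, against 0.205 in WT, around Id2.

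**Figure D5:**
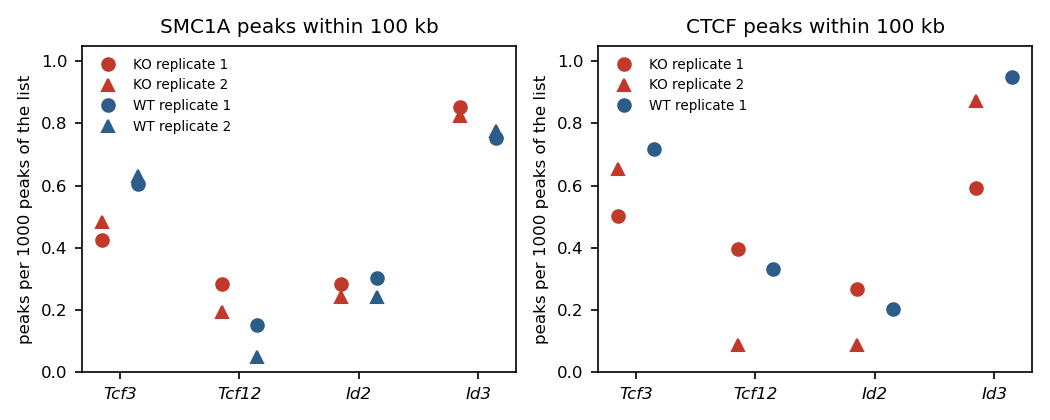
Peaks within 100 kb per 1000 peaks of the list for each gene, SMC1A on the left and CTCF on the right, with a point per list, KO in red and WT in blue. Id3 has the highest SMC1A density in each list, and both KO CTCF points lie below the WT point at Tcf3 and Id3 and on either side of it at Tcf12 and Id2.

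Other genes of the pathway were described as 2 lists. Among 11 helix-loop-helix partners and antagonists (Tcf4, Id1, Id4, Tal1, Lyl1, Lmo1, Lmo2, Ldb1, Hes1, Bhlhe40 and Runx1t1), 4 of 38 SMC1A regions in both KO lists were gained (10.5%) and 3 of 31 in both WT lists were lost (9.68%), each at 3 genes. Among 13 genes known as E protein targets or as upstream of Id3 (Rag1, Rag2, Ptcra, Cd4, Gfi1, Notch1, Il7r, Cdkn1a, Socs1, Egr1, Egr2, Egr3 and Zbtb16), 12 of 81 were gained (14.8%), at 9 genes, and 2 of 72 were lost (2.78%). Il7r, the receptor gene of interleukin 7, held 4 of these gained regions, and Id3 with 5 had more than any gene of both lists. For CTCF, 2 of 44 regions were gained (4.55%) and 17 of 79 lost (21.5%) at the partners and antagonists. At the targets and inducers 5 of 73 were gained (6.85%) and 21 of 140 lost (15%). Set beside the genome's 13.1% and 4.15% for SMC1A and 8.29% and 18.9% for CTCF, these shares describe the lists and were not tested.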

How the data were processed

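CUT&RUN peak lists of sorted DP thymocytes were analysed, 1 list per sample, so peaks were called per sample and not on pooled samples. Per the submitters' processing notes, the tools were Trimmomatic 1.24, Bowtie2, SAMtools, deepTools, MACS2 and R 4.12 on mm10, with settings and peak-calling control not given in the sources used here. Lists as the authors deposited them give each peak a fold over background (a ratio), with −log10 values of p and q. The highest q in them was 0.0498. No read counts were used. The WT replicate 1 lists are deposited for the series and were matched to samples by the genotype, antibody and replicate in their peak names. Not analysed here were the second WT CTCF sample and those for H3K27ac, IgG and input.

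Peaks on the 19 autosomes, X and Y were merged within a protein at an overlap of 1 bp or more, and a region belongs to each list with a peak in it. Where a list had several peaks in a region, the one with the highest −log10 q is given. Genes and promoters came from RefSeq tables of GRCm38.p6, the assembly of mm10. Whole pile-ups were solved from the fold and −log10 p under a Poisson model, with −log10 p met within 0.001. Density was tested with limma 3.58.1 (R 4.3.3, mean-variance trend, Benjamini-Hochberg) on log2((peaks within 100 kb + 0.5) per 1000000 peaks of the list), for genes with a mean of 2 or more peaks. An exact two-sided permutation test stood beside it. The other steps used Python 3.11.15, numpy 2.4.6, pandas 2.3.3 and scipy 1.17.1. Merging and limma steps were tested on simulated data.

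Named by rule were the regions in every list of a protein, those lost or gained, those in or within 2 kb of a gene body, and those highest in a list. A few weaker regions were named beyond it, after their values were seen. Of the second pathway list, 1 gene is not reported here, and the list's counts leave it out. The 4 genes, the gene lists and the rules were chosen with earlier results of these data known. Replicate numbers match the batch in the labels, which alone does not show that KO and WT samples of the same number were paired. The deviations of KO and WT replicate 1 from their genotype means had a correlation of -0.0181 over 14601 genes. The alternatives changed the −log10 q limit (5 or more), the list lengths (made equal), the overlap (at least 0.5 of the shorter peak), the distance (20 kb in place of 100 kb), the filter, the offset and the centring. They also left out each replicate or added the replicate block.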

Additional observations from a re-analysis of the deposited data

How the results depend on the processing

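Of the counts near the 4 genes, SMC1A losses (0) became 1 with lists of equal length and 1 to 5 with 1 list left out. SMC1A gains (5) became 3 at a −log10 q of 5 or more, 3 with equal lengths, 2 within 20 kb and 6 to 16 with 1 list left out. The gains near Id3 (5) became 3, 3 and 2 under the first 3 of these and 5 to 8 with 1 list left out, alternatives that were added after seeing the data, as was the demand of no WT peak within 500 bp, which left 4. CTCF losses (19) became 4, 8 and 7 under the same 3 settings, 25 with an overlap of at least 0.5 and 20 to 55 with 1 KO list left out. Of the 4 at a −log10 q of 5 or more, 1 at Tcf3 and 1 at Id3 were among the 19. Of the 8 with equal lengths, 0 were among the 19. CTCF gains (4) became 0 at a −log10 q of 5 or more, 0 within 20 kb, 2 with the stricter overlap and 6 to 36 with 1 KO list left out. The sole WT CTCF list could not be left out.

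The 54 genes that limma called for SMC1A density became 0 at a −log10 q of 5 or more, 0 within 20 kb and 0 with library medians set to 0, with 1127, 776 and 1571 at an unadjusted p under 0.05. They became 229 with equal lengths (113 higher, 116 lower), 170 with a mean of 5 or more peaks (83 higher, 87 lower) and 101 with an offset of 1 peak. With the replicate block they became 0, and the block changed no call at Tcf3, Tcf12, Id2 or Id3. With 1 list left out they ran from 0 to 274, namely 274 without KO replicate 1, 214 without KO replicate 2 and 0 without either WT list (1273 and 1230 at an unadjusted p under 0.05), and the lone list was assumed to vary like the others. The Tcf12 change ran from 0.54 to 1.82 with 1 list left out and passed without KO replicate 2 (1.42). It could not be tested at a −log10 q of 5 or more or with a mean of 5 or more peaks, where Tcf12 falls below the filter. The Id2 change turned to 0.31 at a −log10 q of 5 or more and ran from -0.21 to 0.09 with 1 list left out, turning positive without KO replicate 2 and without WT replicate 1. The Id3 change turned to -0.25 within 20 kb. The causes were not tested, and the other settings kept direction and call for these 4 genes. Peaks of few reads and the unknown depth limit what absence from a list shows.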
